A study of Homo sapiens with 6 samples.

Results

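Heat shock proteins and their partner chaperones were examined in neurons with reduced RBM12, with and without isoproterenol. Members were the genes whose symbol begins with HSPA, HSPB, HSPD, HSPE, HSPH, HSP90, DNAJA, DNAJB or DNAJC and goes on in letters or digits with no hyphen, which gave 96 of the 19823 genes of the table. Of these, 67 were protein-coding and 29 were pseudogenes in GENCODE release 44. The data are RNA-seq of 6 samples of glutamatergic excitatory neurons (iNeurons) made from the human iPSC line WTc11. In all 6, CRISPR interference had lowered RBM12, whose product binds RNA, and the cells had only the native β2-adrenergic receptors of the parental line. The groups were 3 untreated samples and 3 treated with isoproterenol, a β2-adrenergic agonist that raises cAMP. The labels give neither the dose nor the duration. The neurons descended from a single clone in which NGN2, the factor that turns the stem cells into neurons, is switched on by doxycycline and a dCas9-KRAB repressor serves the knockdown. Neurons with a control guide were not analysed here, so every value describes RBM12-depleted cells.

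Chaperones bind unfolded or newly made proteins and help them reach or keep their folded form. HSP70 proteins (HSPA) hold short exposed stretches of a client through cycles of ATP binding, J-domain proteins (DNAJA, DNAJB and DNAJC) bring clients to them and stimulate the ATPase, nucleotide exchange factors such as HSPH1 release the client, and HSP90 proteins act on nearly folded clients such as kinases and steroid receptors. Heat shock factors raise many of the cytosolic members when proteins misfold, the unfolded protein response raises those of the endoplasmic reticulum, and in neurons HSPA8 also works with DNAJC6 to strip clathrin from vesicles and with DNAJC5 on synaptic vesicles.

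Depth ran from 18116816 to 21488793 recovered reads, and the mitochondrial share of reads was 3.44% to 4.54%. RBM12 itself had 244, 279 and 267 normalized counts in the untreated samples and 195, 238 and 233 after isoproterenol, a log2 fold change of -0.25 ± 0.11 (SE, limma) with an adjusted p of 0.607, or 0.131 with the replicate block described below. The summed level of 8 glutamatergic neuron markers ran from 82717 to 85277 in the untreated samples and from 83851 to 87788 with isoproterenol. The 8 differed widely in level. MAP2 had untreated and treated means of 33644 and 33666, and TUBB3 had 77.7 and 81.1. Of 3 pluripotency markers, 2 were in the table, and their sum was 19.4 to 19.8 and 14.4 to 28.8. The astrocyte list had 2 of 4 markers in the table, summing to 160 to 175 and 134 to 157, and the proliferation list had 1 of 3, at 112 to 147 and 123 to 145. The astrocyte sum was thus lower in every treated sample, and its part in the results was not tested. Most of that difference lay in AQP4, with group means of 114.5 and 94.6, while S100B had 50.9 and 50.1. Each of these markers had overlapping groups. In bulk samples, fewer cells of a type and less RNA per cell cannot be told apart. The labels do not say whether the replicates were separate cultures, so each p speaks for these samples only. It also rests on a variance estimate shared with genes of similar level. In the fits with the replicate block, it rests on differences within same-numbered samples.

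Before the levels, the promoters of the genes that the results turn on are shown, because heat shock factors and the unfolded protein response act through known short sequences. RefSeq promoters of GRCh38.p14, from 250 bases before to 50 after each start, were found for 60 members and for 27305 genes in all, and each was searched on both strands. The heat shock element core GAANNTTC lay in the promoters of 15 members (25%) and of 8.21% of all genes. These 15 included HSP90AA1, HSP90AB1, HSPD1, HSPA8, HSPA1A, HSPA1B, HSPB1, DNAJA1 and DNAJB1. The window of HSP90AA1 was chr14:102087100-102087147 on the minus strand, that of HSP90AB1 chr6:44247763-44247863 on the plus strand, and that of DNAJB1 chr19:14518417-14518494 on the minus strand. The sites of HSPD1 (chr2:197500063-197500090) and HSPA8 (chr11:123062349-123062376 and, nearer the start, chr11:123062169-123062196) lay on the minus strand. Capitals mark the matches.
HSP90AA1: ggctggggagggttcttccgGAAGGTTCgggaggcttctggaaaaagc
HSP90AB1: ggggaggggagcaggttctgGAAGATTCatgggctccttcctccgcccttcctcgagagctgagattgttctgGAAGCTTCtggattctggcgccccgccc
DNAJB1: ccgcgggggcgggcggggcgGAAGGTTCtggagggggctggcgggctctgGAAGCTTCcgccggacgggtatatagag
HSPD1: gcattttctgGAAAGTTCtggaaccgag
HSPA8, far site: gggcgagcttGAAAGTTCcagaacgctg
HSPA8, near site: gccccttctgGAAGGTTCtaagataggg

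The endoplasmic reticulum stress element, CCAAT and CCACG with 9 bases between them, lay in the promoters of 2 members, HSP90B1 and HSPA5 (3.33% of the 60, against 0.0916% of all genes). HSP90B1 held it at chr12:103930211-103930239 and, in the reverse orientation, at chr12:103930316-103930344, both on the plus strand of the gene, and HSPA5 held it at chr9:125241386-125241414 on the minus strand. Capitals mark the outer bases of each match.
HSP90B1, far site: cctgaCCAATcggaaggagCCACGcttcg
HSP90B1, near site: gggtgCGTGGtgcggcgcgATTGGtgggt
HSPA5: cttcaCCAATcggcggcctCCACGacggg
The full cAMP response element TGACGTCA lay in the promoters of 2 members, HSP90AB1 (at another of its starts) and DNAJC27, again 3.33% of members, against 2.25% of all genes. A match describes letters in this window and is no evidence of binding.

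After isoproterenol, none of the members stood past the threshold in the test without pairing, and 6 were lower once same-numbered samples were compared. All 3 protein-coding members with the HSP90 prefix, as well as HSPA5, HSPD1 and DNAJC8, fell, with mean changes from -7.26% to -10.5%, and no member rose. Of the 96 members, 86 had more than 5 reads in at least 4 samples and were tested among 18130 genes. With limma on log2(normalized count + 1), 0 members passed an adjusted p of 0.05 (edgeR 0, DESeq2 0), and 7 had an unadjusted p under 0.05. In that test only 3 genes of all tested were called (0.0165%). Samples with the same replicate number deviated together over genes, so a fit with the replicate number as a term (the replicate block) was set beside it. Other ways of matching the samples were not tried. With limma and the replicate block, 6 of 86 members (6.98%) were lower and 0 were higher, where 2.06% of all genes tested were called lower and 2.82% higher. edgeR with the replicate block called 7 members, adding DNAJB6, against 2.35% of all genes called lower. High counts are measured more precisely: of the 705 genes averaging 5000 normalized counts or more, a limit chosen after the values were seen, 10.4% were called lower, and 5 of the 10 members above it were. HSPA9 and HSPA12A averaged just under this limit (4984 and 4981). They were not called, and their log2 fold changes were 0.02 and 0.04.

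**Figure D1:**
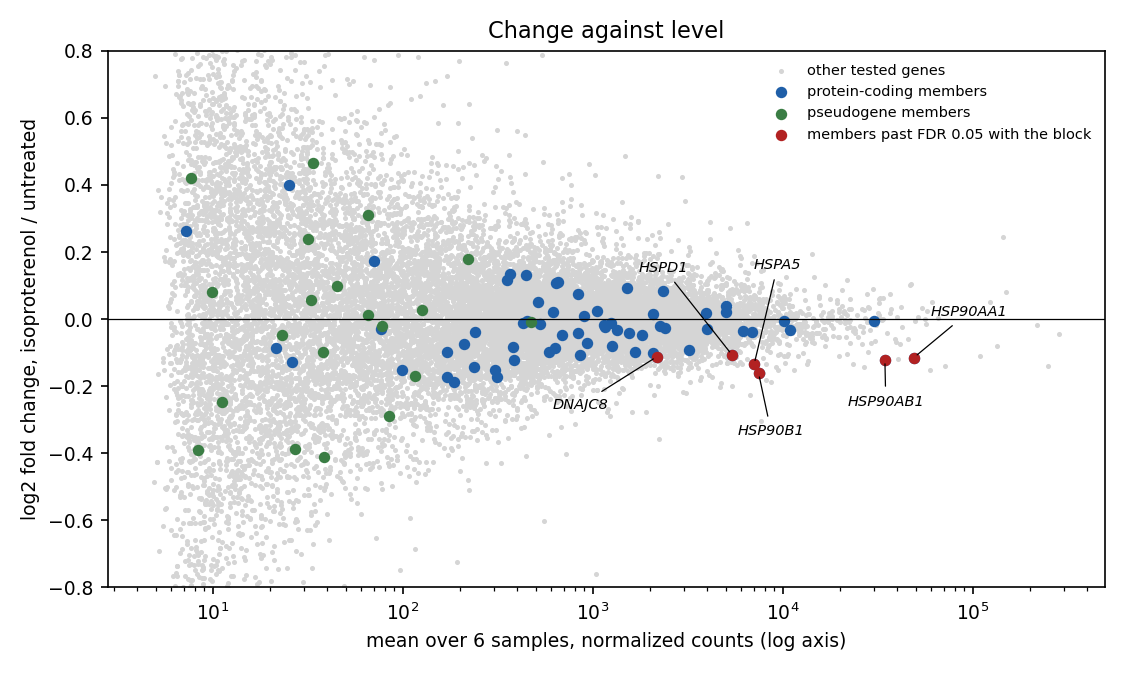
Log2 fold change (isoproterenol over untreated) against the mean normalized count over 6 samples (log axis) for all genes tested, with protein-coding members in blue, pseudogenes in green and the 6 members past FDR 0.05 with the replicate block in red. All 10 members with a mean of at least 5000 lie below 0, while HSPA9 and HSPA12A, just under that limit, lie above 0. Outside the vertical range of -0.8 to 0.8 lie 310 genes.

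The HSP90 genes had the smallest adjusted p-values of the members in limma with the replicate block. HSP90AA1, the stress-inducible cytosolic HSP90 (ENSG00000080824, chromosome 14, 102080742 to 102139699, minus strand), had 51065.5, 50714 and 50552 normalized counts in the untreated samples and 46227, 47536 and 46947 after isoproterenol. Every treated sample lay below every untreated one. The mean fell by 7.63%, a log2 fold change of -0.11 ± 0.03 (SE), with a limma adjusted p of 0.211 without the block, 4.17e-10 with the replicate block and 3.99e-06 in edgeR with the block. HSP90AB1, the constitutive cytosolic form (ENSG00000096384, chromosome 6, 44246166 to 44253888, plus strand), had 35873.5, 34743 and 36749 normalized counts untreated and 32209, 33025 and 33483 treated. Its groups did not overlap either. Its log2 fold change was -0.12 ± 0.03 (SE), with a limma adjusted p of 0.272, and 3.21e-09 with the replicate block.

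HSP90B1 (GRP94), the HSP90 of the endoplasmic reticulum (ENSG00000166598, chromosome 12, 103930107 to 103953931, plus strand), showed the largest fall of the 6 genes. It had 7742, 7460 and 8313 normalized counts untreated and 6819, 6715 and 7510 treated. The ranges overlapped, since replicate 3 was highest in both groups, but each treated sample lay below its own partner. The log2 fold change came to -0.16 ± 0.05 (SE), with a limma adjusted p of 0.394, and 1.96e-07 with the replicate block. On the log2 scale pairs 1, 2 and 3 differed by -0.18, -0.15 and -0.15.

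HSPA5 (BiP), the HSP70 of the endoplasmic reticulum lumen (ENSG00000044574, chromosome 9, 125234853 to 125241382, minus strand), followed the same order of samples. It had 7219, 6842 and 8060 normalized counts untreated and 6638, 6441 and 7031 treated, again highest in replicate 3 of each group, with overlapping ranges. Its log2 fold change was -0.14 ± 0.05 (SE), with a limma adjusted p of 0.594, and 3.27e-05 with the replicate block. These 4 genes kept an adjusted p under 0.05 in limma with the replicate block when any 1 pair was left out, the highest value being 0.0422, for HSPA5 without pair 3.

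HSPD1 (HSP60), the mitochondrial chaperonin (ENSG00000144381, chromosome 2, 197486584 to 197516737, minus strand), had 5615, 5292 and 5901 normalized counts untreated and 5145, 5144 and 5299 treated. Only the third treated sample reached the lowest untreated one. This gave a log2 fold change of -0.11 ± 0.04 (SE), with a limma adjusted p of 0.595, and 0.00473 with the replicate block. That call was lost without pair 1 (adjusted p 0.0786, limma with the block) or pair 3 (0.212) and kept without pair 2 (0.00145). DNAJC8, a nuclear J-domain protein linked to splicing (ENSG00000126698, chromosome 1, 28199456 to 28233029, minus strand), had 2354, 2229 and 2167 normalized counts untreated and 2091, 2123 and 2028 treated, with no overlap. Its log2 fold change was -0.11 ± 0.05 (SE), with a limma adjusted p of 0.612, and 0.0484 with the replicate block, and the call was lost when any pair was left out (0.414, 0.0676 and 0.157 without pairs 1, 2 and 3).

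**Figure D2:**
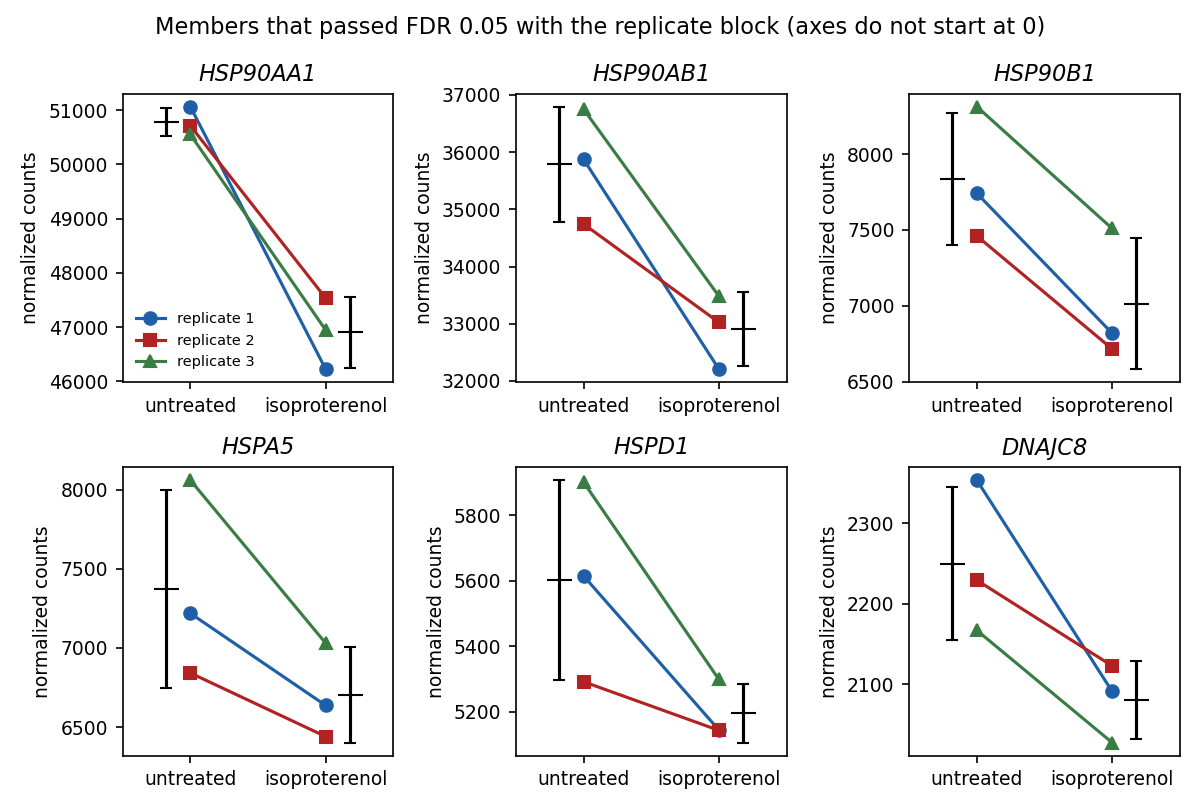
Normalized counts of the 6 members past FDR 0.05 with the replicate block in each sample, with lines joining same-numbered samples and black bars giving the group mean ± SD (n = 3). Each of the 18 lines slopes down, and the groups do not overlap for HSP90AA1, HSP90AB1 and DNAJC8. The axes do not start at 0.

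Exons of several of these genes overlap other genes, and the sources used here do not say whether the reads were counted by strand. HSP90B1 shares 910 exon bases with TTC41P and UQCC6 on the other strand and 131 with MIR3652 on its own, HSP90AA1 shares 197 with WDR20, and HSPD1 shares 135 with HSPE1. HSP90AB1, HSPA5 and DNAJC8 have no such overlap in GENCODE release 44.

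The main cytosolic HSP70, HSPA8, did not follow the HSP90 genes, although it is of similar abundance. HSPA8 had 30421, 28927 and 31648 normalized counts untreated and 30636, 28707 and 31242 treated, so the groups overlapped fully. That is a log2 fold change of -0.01 ± 0.04 (SE), with a limma adjusted p of 0.982, and 0.902 with the replicate block. The stress-inducible pair HSPA1A and HSPA1B are near-identical copies, between which reads may be split, so their separate values are uncertain. HSPA1A had 1574, 1578 and 1532 normalized counts untreated and 1546, 1529 and 1473 treated. HSPA1B had 689, 728 and 666 untreated and 633, 720 and 666 treated. Both sets overlap, with log2 fold changes of -0.04 ± 0.05 and -0.05 ± 0.07 (SE). Among other HSP70 genes, HSPA9, the mitochondrial HSP70, was at 0.02 ± 0.05, and HSPA4, a nucleotide exchange factor, at -0.04 ± 0.04 (log2 fold change ± SE). HSPA6, the strictly stress-induced HSP70, was not among the genes of the table and so could not be analysed.

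Over the 14 protein-coding HSPA rows the median log2 fold change was -0.02, with 8 lower and 6 higher, and HSPA5 was the only one that fell with the replicate block. The name HSPA14 stood on 2 rows. The row ENSG00000284024 is called MSANTD7 in GENCODE release 44, and the 2 share 318 exon bases. The MSANTD7 row was at 628, 638 and 627 normalized counts untreated and 719, 647 and 677 treated, with no overlap and a log2 fold change of 0.11 ± 0.07 (SE), while the other row, ENSG00000187522, was at -0.17 ± 0.12.

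The remaining partners of HSP60 and the exchange factors did not pass. HSPE1 (HSP10), the lid of the HSP60 chamber, had 329, 310 and 350 normalized counts untreated and 269, 281 and 327 treated, lower within each of the 3 pairs. Its log2 fold change was -0.17 ± 0.10 (SE), with a limma adjusted p of 0.710, and 0.299 with the replicate block. It shares 192 exon bases with the readthrough gene HSPE1-MOB4. HSPH1 (HSP110) had 4137, 3773 and 4181 untreated and 4042, 3775 and 4033 treated, a log2 fold change of -0.03 ± 0.05 (SE).

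Among the small heat shock proteins, levels were low apart from HSPB1 (HSP27), which binds unfolding proteins without ATP. HSPB1 had 836, 925 and 905 normalized counts untreated and 782, 830 and 865 treated. It was lower in every pair, with a log2 fold change of -0.11 ± 0.07 (SE) and a limma adjusted p of 0.737, or 0.306 with the replicate block. HSPB7 and HSPB8 had means of 26.1 and 69.9 normalized counts, and HSPB6, at a mean of 3.63, was not tested. The names HSPBP1, HSPBAP1 and HSPB11 share the HSPB prefix, but their products are not small heat shock proteins, and HSPB11 is called IFT25 in GENCODE release 44. None of the 6 tested HSPB rows passed, and their median was -0.07.

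**Figure D3:**
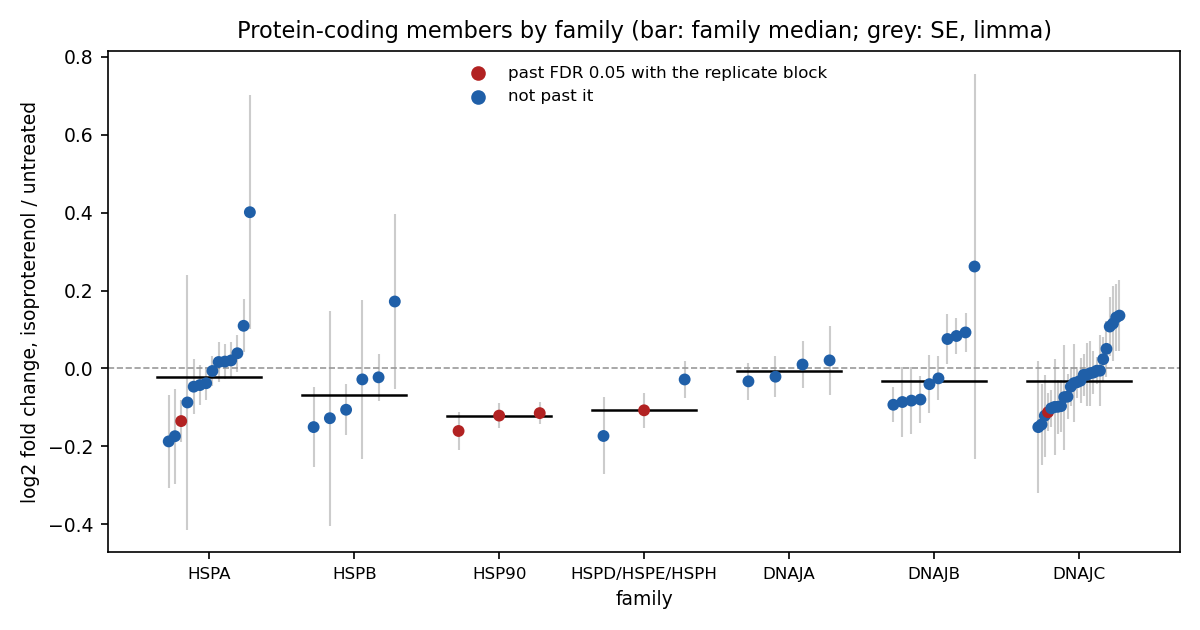
Log2 fold change ± SE (limma) of each tested protein-coding member by family, with a black bar at the family median. The 3 HSP90 genes lie at or below -0.11, and the other families spread on both sides of 0 except HSPD/HSPE/HSPH, whose 3 genes are all below it.

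The J-domain genes each moved little and in both directions, with more of them lower than higher. Across 4 DNAJA, 10 DNAJB and 26 DNAJC protein-coding genes the median log2 fold changes were -0.01, -0.03 and -0.03, and DNAJC8 alone was called with limma and the block. In these families 2, 6 and 20 genes were lower (50%, 60% and 76.9%, against 49.5% of all genes tested). DNAJA1, the most abundant (10841 normalized counts on average), was at -0.03 ± 0.05, and DNAJA4 at 0.02 ± 0.09. DNAJC6 (auxilin), which recruits HSPA8 to clathrin coats, had 9962, 10148 and 10255 normalized counts untreated and 10101, 10085 and 10055 treated. The difference was a log2 fold change of -0.01 ± 0.04 (SE). DNAJC5 (cysteine string protein), which guards synaptic vesicle fusion, was at -0.04 ± 0.04.

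A few J-domain genes lay the other way. DNAJB1 (HSP40), the main stress-induced partner of HSP70, had 1440, 1478 and 1445 normalized counts untreated and 1577, 1514 and 1561 treated. Every treated sample was above every untreated one, opposite in direction to HSP90AA1, which shares the GAANNTTC core. The log2 fold change was 0.09 ± 0.05 (SE), with a limma adjusted p of 0.697, and 0.224 with the replicate block. DNAJB1 shares 623 exon bases with TECR and MIR639 on the other strand. DNAJB9, a target of the unfolded protein response that binds HSPA5, was at 0.08 ± 0.06, higher in each pair. DNAJC3, another endoplasmic reticulum partner of HSPA5, had 392, 455 and 507 normalized counts untreated and 466, 449 and 427 treated, and its pairs disagreed (0.25, -0.02 and -0.25 on the log2 scale).

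DNAJB6, a suppressor of aggregation, was the gene that edgeR added. It had 3454, 3226 and 3260 normalized counts untreated and 3049, 3181 and 3085 treated, with no overlap. This amounts to a log2 fold change of -0.09 ± 0.05 (SE), with an adjusted p of 0.0684 in limma with the replicate block and 0.0452 in edgeR with the block. In all, the groups of 7 members did not overlap with the treated samples lower (HSP90AA1, HSP90AB1, DNAJC8, DNAJC9, DNAJC10, DNAJC21 and DNAJB6), which is 8.14% of members against 6.19% of genes tested. For 4 members (DNAJB1, DNAJB5, DNAJC16 and the MSANTD7 row) the treated samples were higher without overlap, against 6.73% of genes tested.

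Within same-numbered pairs, 25 of 86 members (29.1%) were lower in all 3 pairs, where 17.6% of all genes tested were. Another 8 (9.30%) were higher in all 3, against 18.5% of all genes. These shares depend on level: of genes averaging 5000 normalized counts or more, 31.6% were lower and 25.2% higher in all 3 pairs. Of the 10 members above that limit, 7 were lower in all 3 pairs and 0 higher. The median log2 fold change of the tested members was -0.03, with 57 lower and 29 higher, while the median of all genes was 0.0015. The 66 tested protein-coding members had 47 lower (71.2%, against 49.5% of all genes). The median of the members was -0.01, -0.04 and -0.03 in pairs 1, 2 and 3.

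**Figure D4:**
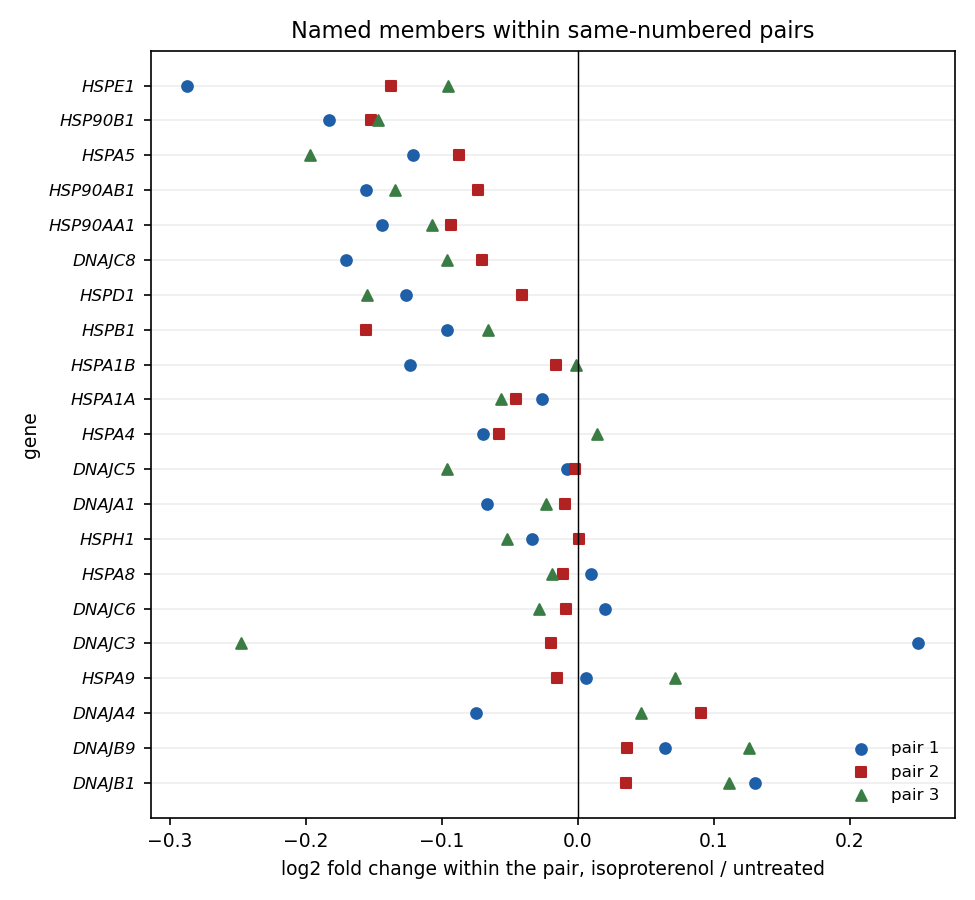
Log2 fold change within each same-numbered pair for the 20 listed key members and DNAJC8, ordered by their overall change. All 3 pairs lie below 0 for the 6 called genes, for HSPE1 and HSPB1 and, nearer 0, for HSPA1A, HSPA1B, DNAJA1 and DNAJC5, and all 3 lie above 0 for DNAJB1 and DNAJB9.

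By summed reads, the members took a smaller share after isoproterenol. The 96 members held 1.14%, 1.11% and 1.14% of all reads in the untreated samples and 1.08%, 1.07% and 1.10% in the treated ones, with no overlap. The 3 HSP90 genes held 0.454%, 0.447% and 0.454%, then 0.409%, 0.418% and 0.422%. Without them the other 93 members held 0.684%, 0.663% and 0.685%, then 0.674%, 0.651% and 0.677%, which overlapped between groups, although each treated sample was below its same-numbered partner. Per kilobase of exon, the 5 highest members were HSP90AB1 (11526 normalized counts per kilobase), HSP90AA1 (9582), HSPA8 (6241), DNAJA1 (4063) and DNAJC6 (1452), so 2 of the 3 genes at the top were among those that fell.

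Grouped by compartment, members that fell were found in the cytosol, the endoplasmic reticulum and the mitochondrion. DNAJC8, the nuclear member that was called, stood in none of these lists. Over all genes tested, 49.5% were lower and 2.06% were called lower with the replicate block, and over genes averaging 5000 normalized counts or more these shares were 55.9% and 10.4%. Of 11 tested cytosolic heat-inducible genes 9 were lower (81.8%), with a median log2 fold change of -0.04, and 2 fell with the replicate block (HSP90AA1 and HSP90AB1). Of 8 chaperones of the endoplasmic reticulum 6 were lower (75%), with a median of -0.08, and 2 fell (HSP90B1 and HSPA5). Of 9 mitochondrial chaperones 6 were lower (66.7%), with a median of -0.02, and 1 fell (HSPD1). The 4 synaptic vesicle and clathrin genes had a median of -0.02, and none fell.

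The 6 called genes also differed in the motifs described above. Of the 15 members with GAANNTTC, 14 were tested (all but HSPB6) and 3 fell with the replicate block (HSP90AA1, HSP90AB1 and HSPD1), with log2 fold changes over these 14 running from -0.19 to 0.17 and a median of -0.04. Of the 45 without it, all tested, 3 fell, with a median of -0.03. The split depends on the RefSeq starts used. HSPE1 was not counted among the 15, although the HSPD1 site lies shortly before its GENCODE start (chr2:197500140, plus strand). Both members with the stress element of the endoplasmic reticulum fell, while 4 of the 57 other tested members fell. These 2, HSP90B1 and HSPA5, averaged 7427 and 7038 normalized counts. Of all genes tested 2.06% were called lower with the replicate block, and 10.4% of those averaging 5000 or more. Calls among all genes with each motif were not counted, so a link between motif and change was not tested. Of the 2 with TGACGTCA, HSP90AB1 fell and DNAJC27 was at 0.11 ± 0.08 (log2 fold change ± SE).

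The genes that work beside these chaperones moved in both directions. Of 26 tested cochaperones of HSP70 and HSP90, 1 rose and 2 fell with limma and the replicate block (7.69% lower, where 2.06% of all genes tested were called lower and 2.82% higher), and the median was -0.04. The one that rose was BAG3, which links HSP70 to selective autophagy. It went from 323 ± 24.3 to 397 ± 23.8 normalized counts (mean ± SD, n = 3), a log2 fold change of 0.30 with an adjusted p of 0.0123 in limma with the replicate block. FKBP5, an HSP90 cochaperone of steroid receptors, fell from 204 ± 2.87 to 156 ± 20.3, a log2 fold change of -0.39 with an adjusted p of 0.0240 in the same fit. Neither gene had overlapping groups. The other that fell was ST13 (HIP), which binds HSP70 and steadies its hold on a client, from 5267 ± 276 to 4862 ± 225, with overlap, a log2 fold change of -0.12 and an adjusted p of 0.00267 in the same fit. The list also holds TRAP1, the mitochondrial HSP90, whose name lacks the prefix used for members. It was not called, with a log2 fold change of 0.02 ± 0.06 (SE) and an adjusted p of 0.917 in limma with the replicate block.

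In the list of the cytosolic chaperonin CCT and its delivery complex prefoldin, 13 of 14 tested genes were lower (92.9%, against 49.5% of all genes), with a median of -0.08. With the replicate block 4 of them fell (CCT5, CCT8, PFDN2 and PFDN6), which is 28.6% against 2.06% of all genes and 10.4% of those averaging 5000 or more. PFDN6 went from 550 ± 31.9 to 452 ± 6.23 normalized counts (mean ± SD, n = 3), with a log2 fold change of -0.28 and an adjusted p of 0.00421 in limma with the block. PFDN2 was at -0.15 (adjusted p 0.0166, limma with the block). The 3 heat shock factors HSF1, HSF2 and HSF4 had log2 fold changes of 0.06, 0.02 and 0.19, and none passed.

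Of 18 genes of folding and the unfolded protein response in the endoplasmic reticulum, 1 rose and 2 fell (11.1%) with limma and the replicate block. Of all genes tested 2.82% were called higher and 2.06% lower, and of those averaging 5000 or more 10.4% were called lower. The median of the 18 genes was -0.05. EIF2AK3 (PERK), a sensor of that response, went from 717 ± 39.4 to 824 ± 56.7 normalized counts (mean ± SD, n = 3), with a log2 fold change of 0.20 and an adjusted p of 0.0188 in that fit. CANX (calnexin), a membrane chaperone of glycoproteins, fell from 13950 ± 89.7 to 12707 ± 307, a log2 fold change of -0.13 with an adjusted p of 2.71e-07. The other that fell was CALR, its soluble counterpart, from a mean of 5475 to 5102. Both genes that fell thus averaged more than 5000 normalized counts. None of the genes in these 4 lists passed in limma without the block.

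**Figure D5:**
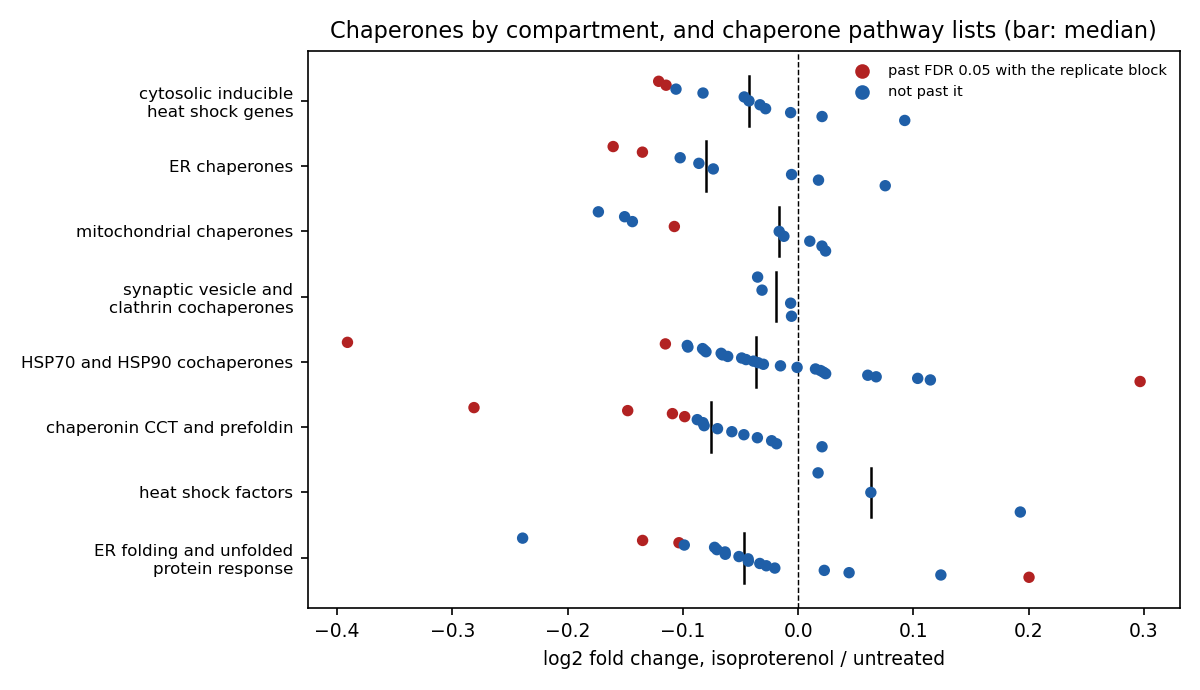
Log2 fold change of each tested gene in 4 chaperone compartments and 4 lists of genes that work beside them, with a black bar at each median and red points for genes past FDR 0.05 with the replicate block. The chaperonin and prefoldin list has 13 of 14 points below 0, and BAG3 and EIF2AK3 are the only red points above it.

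The largest changes by size were in thinly covered rows. HSPA8P7, HSPA12B and HSPA8P8 had the most positive changes among members averaging at least 10 normalized counts, with log2 fold changes of 0.46 ± 0.31, 0.40 ± 0.30 and 0.31 ± 0.19 (SE). HSPD1P4, HSPA9P1 and HSPD1P1 had the most negative, at -0.41 ± 0.32, -0.39 ± 0.28 and -0.29 ± 0.18. None of the 6 passed in limma with or without the block. All but HSPA12B are processed pseudogenes that can share reads with their parent genes, so their values are uncertain. HSPA12B, an atypical HSP70, had 32.4, 15.5 and 18.6 normalized counts untreated and 26.9, 30.0 and 27.7 treated, with overlap. The 20 tested pseudogenes had 10 higher and 10 lower and a median of 0.0007.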

How the data were processed

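Poly(A) RNA libraries from a directional kit were aligned to GRCh38 with STAR and counted with featureCounts by the authors. Tool versions, the annotation release and the use of strand are not given in the sources used here. The deposited values are a signal, namely normalized counts, each the read count of a gene divided by a DESeq2 size factor of its sample. Every value above 0 was a whole number of reads (100%, within 0.01 read), with size factors from 0.867 to 1.033. These recovered reads served the filter, depth and count tests. Gene identifiers were matched to GENCODE release 44 (99.6%, all 96 members).

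Genes with more than 5 reads in at least 4 samples were tested with limma 3.58.1 in R 4.3.3 (intensity trend, robust) on log2(normalized count + 1), untreated against isoproterenol, 3 samples each, two-sided, with Benjamini-Hochberg adjustment over 18130 genes. Fold changes are on that scale, which understates changes of low genes. With group means subtracted, samples sharing a number correlated at 0.269, 0.493 and 0.388 over 11587 genes, all above 0.1, so the numbers, taken from the sample titles, were treated as pairs and the fit with a replicate block stands beside the main one. edgeR 4.0.16 (quasi-likelihood) and DESeq2 1.42.0 were run on the reads. Scripts were tested on simulated data. Levels per kilobase use the joined exon length of GENCODE, not the authors' lengths.

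Members and lists were chosen with earlier results of these data known. The text names 20 key members, every member past FDR 0.05 with or without the block, the 3 largest rises and falls with a mean of at least 10, the 3 highest per kilobase, and up to 6 genes of other lists past FDR 0.05 with the block by size of change. CCT5, CCT8, CALR, ST13, TRAP1, DNAJB6, HSPA12A, MAP2, TUBB3, AQP4 and S100B were named beyond that rule after their values were seen. So were the non-overlapping members, the heat shock factors and the prefix-only or low members. Alternatives were other scalings, filters, a pseudocount of 5, other tools, the replicate block and each sample left out. Protein sequences were not used here.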

Additional observations from a re-analysis of the deposited data

How the results depend on the processing

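The number of members past FDR 0.05 was 0 in limma without pairing and stayed 0 under TMM or total-count scaling, with no filter or a mean of at least 50, with a pseudocount of 5, in edgeR and DESeq2, and with any 1 sample left out. It was 6 with limma and the replicate block and 7 with edgeR and the replicate block. In an alternative chosen after seeing the data, limma with the replicate block called 4, 7 and 4 members without pairs 1, 2 and 3. The median log2 fold change of the members was -0.03 and was negative in every alternative run. It was -0.014 with the block and without pair 2. The 27 named members gave 482 values under 18 alternatives. Of these, 456 kept their direction and side of the threshold or were uncalled throughout, 26 gained a call, none reversed, and 18 uncalled values changed sign. No call could be lost in this count, since the main fit called no member. Calls in limma with the block were lost without pair 1 or 3 for HSPD1 and without any 1 pair for DNAJC8. Of 126 family medians, which include pseudogenes, 9 moved by more than the spread between pairs. All calls thus come from fits that compare same-numbered samples, with 3 samples a group and a variance estimate shared with genes of similar level. Whether the changes need RBM12 depletion was not tested, since control-guide neurons were not analysed here.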
